A study of Mus musculus with 2 samples.

Results

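Low-depth hepatocyte-like barcodes are droplets of a liver single-cell RNA-seq experiment that carried few RNA molecules, almost none of them mitochondrial, yet were rich in hepatocyte transcripts. A barcode was taken as a member when it had 500 to 2000 unique molecular identifiers (UMIs, each standing for 1 captured RNA molecule), at least 200 detected genes, at most 5% of its UMIs in genes of the mitochondrial genome, and at least 5% of its UMIs in 8 hepatocyte genes, Alb, Apoa1, Apoa2, Apoc1, Apoc3, Ttr, Fabp1 and Serpina1c (the rule genes). There were 4887 such barcodes among 33125 in all. They made up 803 of 15663 barcodes (5.13%, exact 95% interval 4.79 to 5.48) in the library labelled Hep-ADKWT and 4084 of 17462 (23.4%, 22.8 to 24.0) in the library labelled Hep-ADKTg. These intervals, and all others given, cover counting error only.

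The study measured liver non-parenchymal cells of male mice at 5 months of age on standard chow, in 1 library per genotype, with no further treatment of either group. Hep-ADKTg mice carry adenosine kinase (Adk) under an albumin promoter, which is active in hepatocytes, and Hep-ADKWT mice are their wild-type controls. The livers of both groups were digested with collagenase, and no label tells if 1 mouse or a pool of mice went into each. The libraries held 97135016 UMIs (WT) and 96481752 UMIs (Tg). With 1 library per group there is no replicate check and no test of any difference, so values are given as levels, folds and counting intervals, and WT and Tg below name the 2 libraries as labelled. Non-parenchymal preparations are made to remove hepatocytes, so the barcodes described are those hepatocyte transcripts left behind.

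Hepatocytes make most of the proteins of blood plasma, and the messenger RNAs (mRNAs) of such secreted proteins are translated on ribosomes bound to the endoplasmic reticulum (ER), to which a stretch of hydrophobic residues at the start of the protein, the signal peptide, directs them. The mRNAs of cytosolic enzymes are translated mostly on free ribosomes. Long non-coding RNAs such as Malat1 and Neat1 stay in the nucleus, and transcripts of the mitochondrial genome stay inside mitochondria, so the mixture of RNAs in a droplet reflects which compartments of a cell it holds. Hepatocytes also differ along the lobule: cells near the portal vein express enzymes of urea synthesis and gluconeogenesis, and those near the central vein express glutamine synthetase and many detoxifying enzymes.

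The start of the coding sequence shows this difference in letters. The first 30 codons of 6 hepatocyte mRNAs are printed as DNA, 5′ to 3′, because secreted and cytosolic proteins are compared below by this stretch. They come from the main coding transcript in GENCODE M21 (build GRCm38), and the coordinates are those of the whole gene. Capitals mark each T at the second position of a codon, the position at which T gives phenylalanine, leucine, isoleucine, methionine or valine, all hydrophobic. Alb (albumin, chr5:90460897-90476602, plus strand), Serpina3k (a secreted protease inhibitor, chr12:104338486-104346144, plus strand) and Hpx (hemopexin, which binds heme in plasma, chr7:105591613-105600137, minus strand) encode secreted proteins.
Alb: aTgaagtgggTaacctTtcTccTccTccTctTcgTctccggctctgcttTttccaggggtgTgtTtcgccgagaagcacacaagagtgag
Serpina3k: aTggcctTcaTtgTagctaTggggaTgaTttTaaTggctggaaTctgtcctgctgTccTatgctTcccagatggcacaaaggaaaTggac
Hpx: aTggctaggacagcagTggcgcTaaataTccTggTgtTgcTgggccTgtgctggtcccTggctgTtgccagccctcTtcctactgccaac
Fabp1 (liver fatty acid-binding protein, chr6:71199827-71205023, plus strand), Akr1c6 (an aldo-keto reductase, chr13:4434306-4457877, plus strand) and Rgn (regucalcin, chrX:20549787-20562089, plus strand) encode cytosolic proteins.
Fabp1: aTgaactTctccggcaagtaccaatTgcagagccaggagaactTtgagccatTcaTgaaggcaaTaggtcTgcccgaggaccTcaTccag
Akr1c6: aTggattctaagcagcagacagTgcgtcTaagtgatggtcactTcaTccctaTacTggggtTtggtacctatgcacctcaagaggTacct
Rgn: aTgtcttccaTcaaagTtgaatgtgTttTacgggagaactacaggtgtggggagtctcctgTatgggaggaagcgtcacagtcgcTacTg
Counted as the highest number of such codons in any 9 consecutive codons after the first, Alb has 8, Serpina3k and Hpx have 7, Akr1c6 has 5, and Fabp1 and Rgn have 4.

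The members' own depth was close in the 2 libraries. Members ranged from 500 to 1992 UMIs with a median of 910 in WT, and from 550 to 1997 with a median of 849 in Tg, where no barcode had fewer than 550 UMIs. The median member had 536 detected genes in WT and 479.5 in Tg. Its mitochondrial share was 0.327% of UMIs in WT and 1.19% in Tg, and 72 WT members and 6 Tg members had no mitochondrial UMI at all. The rule genes took a median of 7.14% of a member's UMIs in WT and 9.03% in Tg. All levels below are counts per 1000000 non-mitochondrial UMIs (CPM), summed over the barcodes of a group, so that the mitochondrial share does not enter them.

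Barcodes just inside and just outside each limit are given as a description. The Tg library had 233 members at 4 to 5% mitochondrial UMIs, with 8.23% of UMIs in rule genes at the median, and 169 barcodes just outside at 5 to 6%, with 8.25%. WT had 16 and 15 barcodes there, with 7.61% and 6.42%. At the limit on rule genes, 85 WT and 82 Tg members lay between 5 and 5.5%, and 61 and 70 barcodes lay just outside between 4.5 and 5%. At the upper limit of depth, 37 WT and 181 Tg members had 1800 UMIs or more, and 33 and 104 barcodes had more than 2000 and at most 2200. Rule genes took 6.79% inside and 6.83% outside this limit in WT, and 10.0% and 9.01% in Tg. Each of these limits had barcodes on both sides. Dropping the mitochondrial limit would have added few WT barcodes and many Tg ones, since 86.9% of the 924 WT barcodes and 69.1% of the 5912 Tg barcodes that met the other criteria were within it.

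**Figure D1:**
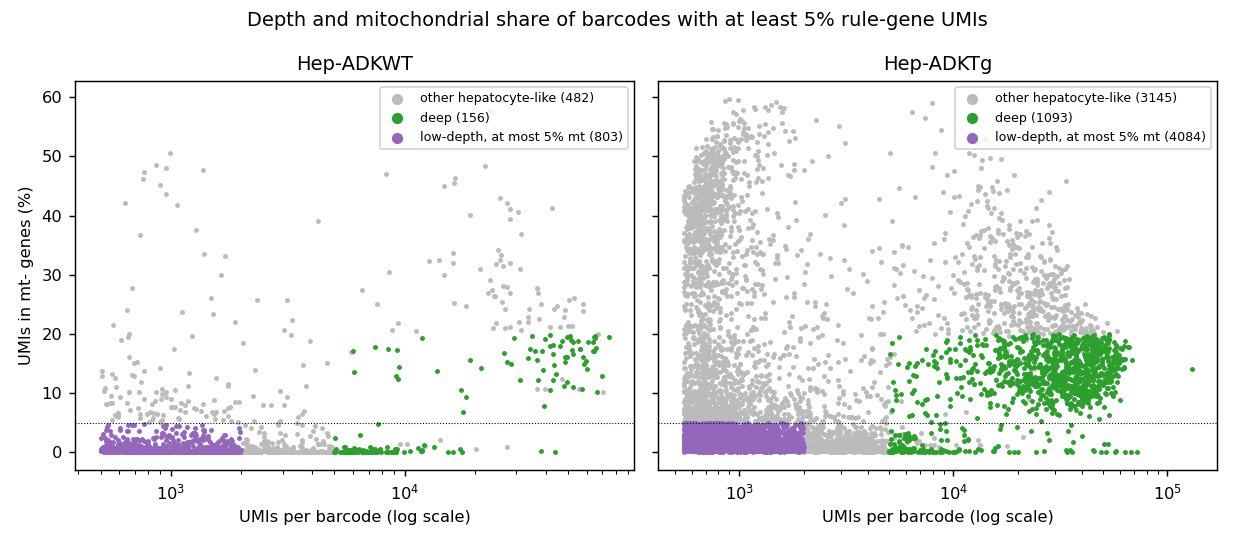
Depth and mitochondrial share of barcodes in the 2 libraries. Each point is a barcode with at least 5% of its UMIs in rule genes, with its UMIs on the x axis (log scale) and the percentage of its UMIs in mitochondrial genes on the y axis. Members (purple) lie in the lower left below the dotted line at 5%, and the deep barcodes described below (green) lie mostly above it in Tg (median 13.3%).

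The markers given for these barcodes, Alb, Fabp1 and Ttr, are all rule genes. Their detection was thus largely fixed by the rule, and it is given as a description and not as a check of the label. In WT, 97.5% of members had an Alb UMI, 99.9% a Fabp1 UMI and 96.3% a Ttr UMI (transthyretin, the plasma carrier of thyroid hormone). Every share was 99.8% or more in Tg. Hepatocyte RNA was also found in barcodes that should lack it: among 2265 WT B cells (median 3658 UMIs, against 910 in members) 89.1% had an Alb UMI and 59.7% a Fabp1 UMI. Over members and B cells, a contrast that the rule itself fixes, the 8 rule genes stood at 7.63% of non-mitochondrial UMIs in WT members and 0.399% in WT B cells, and at 9.33% and 1.67% in Tg.

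Free RNA from broken cells can enter any droplet, so ratios of hepatocyte transcripts to Alb are given for members and B cells. Alb and Fabp1 are rule genes, by which members were chosen and B cells were not, so these ratios are a description. The ratio of Fabp1 to Alb UMIs was 2.65 (2.58 to 2.72) in WT members and 0.455 in WT B cells. It was 0.947 in Tg members and 0.436 in Tg B cells. Gstm1, a cytosolic glutathione transferase, stood at 0.237 UMIs per Alb UMI in WT members against 0.0472 in B cells, and at 0.0601 against 0.0252 in Tg. Both cytosolic transcripts were thus higher relative to Alb in members than in B cells of each library. For secreted proteins the ratios were closer: Serpina3k stood at 0.300 per Alb UMI in WT members and 0.271 in B cells, and at 0.319 and 0.372 in Tg. Hpx stood at 0.270 and 0.217 in WT, and at 0.343 and 0.346 in Tg. What part of a member's UMIs came from free RNA was not tested.

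Markers of other cell types were counted in members. With haemoglobin not counted, no UMI of any other class's markers was found in 349 WT members (43.5%) and 2481 Tg members (60.7%). A haemoglobin UMI was found in 84.3% of WT members and 29.2% of Tg members. Endothelial markers summed to 209 CPM in WT and 456 in Tg, with all 14 of 14 markers detected in WT, and 1.25% and 4.16% of members held 3 or more such UMIs. T and NK cell markers summed to 186 and 86.4 CPM. Neutrophil markers summed to 132 and 56.9 CPM. Kupffer cell markers summed to 4.97 CPM in WT, where 3 of 10 had a UMI and Clec4f had none, and to 67.6 CPM in Tg. Haemoglobin transcripts stood at 2798 CPM in WT members and 2614 in the WT deep barcodes described below, and at 1681 and 209 in Tg. Barcode sequences found in both libraries numbered 88, of which 2 were members in both.

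Members were first compared with deep hepatocyte-like barcodes, those with at least 5000 UMIs, at most 20% mitochondrial UMIs, at least 5% in rule genes and at most 0.2% in markers of other classes. There were 156 in WT (median 9702 UMIs) and 1093 in Tg (median 30018 UMIs). Of 5983 genes with at least 50 UMIs over both groups in WT, 396 (6.62%) were over 2-fold higher in members and 863 (14.4%) over 2-fold lower. Of 10224 genes in Tg, 668 (6.53%) were higher and 742 (7.26%) lower. Over the 5983 genes measured in both libraries, 137 (2.29%) were over 2-fold higher in both, 290 (4.85%) over 2-fold lower in both, and 0 (0.0%) past 2-fold in opposite directions. The libraries gave the same sign for 4859 genes (81.2%). Without regard to size, 3567 of the 5983 genes were higher in members in WT and 3245 in Tg. The balance depends on scaling: TMM factors, which assume that most genes are equal, gave 44 higher and 513 lower, and CPM over all UMIs gave 309 higher and 156 lower. TMM moved the median of all genes from 0.19 to -0.09 in WT and from 0.06 to -0.14 in Tg, so ratios are best read relative to these medians. Under the scalings tried, list medians given below kept their sign except those of methionine and adenosine metabolism, of major urinary proteins and P450 enzymes in Tg, and of transcription factors in WT.

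Secreted proteins were lower in members almost throughout. Of 47 plasma protein genes, 44 were lower in both libraries, and 33 were past 2-fold in WT, 6 in Tg and 6 in both. The median log2 ratio of members to deep barcodes was -1.57 in WT and -0.53 in Tg, beside 0.19 and 0.06 for all genes measured in both. Serpina3k stood at 2697 CPM (2585 to 2813) in WT members and 11757 in WT deep barcodes, a log2 ratio of -2.12, and at 5513 against 13711 CPM in Tg, a ratio of -1.31. Hpx stood at 2428 against 8364 CPM in WT (-1.78) and 5927 against 9017 in Tg (-0.61). Both were lower in the members of each library, and both were lower still in WT members than in Tg members.

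Apob, the structural protein of very-low-density lipoprotein, stood at 650 CPM in WT members and 2483 in deep barcodes (-1.93), and at 1555 against 2810 in Tg (-0.85). Fga, the fibrinogen alpha chain, showed the same order, with 460 against 2582 CPM in WT (-2.49) and 1408 against 3521 in Tg (-1.32). The exceptions among plasma proteins were Hamp (hepcidin, the regulator of iron export), at 0.05 in WT and 0.57 in Tg, Fetub at -0.79 and 0.23, and Ttpa, a cytosolic vitamin E transfer protein held in that list, at 0.16 and -0.47. Acute phase proteins, whose list overlaps this one, had medians of -1.16 and -0.52, with 16 of 20 lower in both libraries.

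The rule genes are given as a description, since they chose the members. Alb ran from 0 through a median of 66.3 to 666 UMIs per 10000 non-mitochondrial UMIs over WT members, and from 0 through 163 to 638 over Tg members. Summed, it stood at 8996 CPM in WT members against 30915 in deep barcodes (log2 ratio -1.78) and at 17294 against 27348 in Tg (-0.66). Fabp1, the only cytosolic protein of the 8, lay the other way, at 23836 against 13833 CPM in WT (0.78) and 16370.0 against 10239 in Tg (0.68). This held against all deep barcodes only. Deep barcodes of at most 5% mitochondrial UMIs, set apart below, had more Fabp1 than members, at 27337 CPM in WT and 17226 in Tg. Over members the median of Fabp1 was 234 per 10000 UMIs in WT and 149 in Tg. In the pooled WT members Fabp1 was the second most abundant transcript, ahead of albumin in the sixth place.

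Membrane proteins enter the ER in the same way as secreted ones. All 27 transporters and receptors of the plasma membrane were lower in members in both libraries, 11 of them past 2-fold in both, with medians of -1.73 and -0.88. Slc10a1, the bile salt uptake transporter, stood at 102 against 476 CPM in WT (-2.22) and 148 against 456 in Tg (-1.62). The epidermal growth factor receptor Egfr lay at -1.98 and -1.07, and the glucose transporter Slc2a2 at -2.44 and -1.39. Protein-coding genes with the lowest ratios in both libraries included Plxna2 and Ptprf (cell surface receptors), Cdh1 and Cadm1 (adhesion proteins), Slc39a14 (a metal transporter), G6pc (glucose-6-phosphatase of the ER membrane), Dhcr7 (a cholesterol synthesis enzyme of the ER membrane), Abhd2 and F7 (clotting factor VII, a secreted protein). G6pc stood at 44.7 against 356 CPM in WT and at 132 against 426 in Tg. Cdh1 rested on 4 UMIs in WT members (log2 ratio -3.93, interval -5.81 to -2.55), against -1.87 in Tg.

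The list of heat shock chaperones held genes on both sides. Hspa5, the main chaperone of the ER lumen, stood at 98.2 against 526.5 CPM in WT (log2 ratio -2.42) and 320 against 716 in Tg (-1.16). The other ER chaperone of the list, Hsp90b1, stood at 200.03 against 1022 CPM in WT (-2.35) and 598 against 1200.4 in Tg (-1.005). Cytosolic chaperones of the same list included Hspa8 at 0.56 and 0.76, Dnaja1 at 1.04 and 0.82, and Hspb1 at 1.39 and 1.64. Dnajb1, a cytosolic co-chaperone, stood at -0.05 and 0.23, on 12 UMIs in WT members. The list as a whole had 8 of 11 genes higher in both libraries. The ER enzymes of drug metabolism were divided, with 8 of 25 P450 and UGT genes higher in both libraries and 13 lower in both (medians -0.85 and -0.02).

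Cytosolic proteins lay on the other side of the all-gene median. Of 42 cytosolic metabolic enzymes, 32 were higher in members in both libraries, 3 past 2-fold in both, with medians of 0.57 and 0.33. Akr1c6 stood at 4730 CPM (4581 to 4883) in WT members and 1516 in deep barcodes (1.64), and at 2680 against 847 in Tg (1.66). Gstm1 lay at 1.42 and 1.49, and Gsta3, a second glutathione transferase, at 1.65 and 1.48. Rgn, which binds calcium, stood at 2282 against 568 CPM in WT (2.01) and 1181 against 237 in Tg (2.32). The exceptions in the list included fatty acid synthase Fasn, a long transcript, at -1.33 and -0.999. Cytosolic binding and storage proteins had 10 of 11 genes higher in both libraries (medians 0.79 and 0.46), and all 14 cytoskeleton genes measured were higher in both (0.56 and 0.68). The highest cytoskeleton ratios were those of the thymosins Tmsb10 in WT (1.69) and Tmsb4x in Tg (2.76). Markers of other classes were limited in deep barcodes and not in members, and the part of other cells' RNA in this list was not tested. Enzymes of methionine and adenosine metabolism, the pathway of the transgene, had 9 of 14 genes higher in both. Their medians of 0.24 and 0.09 were close to those of all genes (0.19 and 0.06). Transcription factors of hepatocytes were near the all-gene median in WT and below it in Tg (-0.01 and -0.28).

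Nuclear-encoded proteins of mitochondria, made on cytosolic ribosomes and imported, lay with the cytosolic group although the mitochondrial genome's own transcripts did not. Of 29 mitochondrial enzymes, 19 were higher in both libraries (medians 0.49 and 0.46), and of 41 respiratory chain subunits 30 were (0.45 and 0.24). Acaa2 (fatty acid oxidation) lay at 0.98 and 1.08, while the outer membrane carnitine transferase Cpt1a lay at -1.82 and -1.40 and the urea cycle enzyme Cps1 at -1.73 and -1.17. The mitochondrially encoded mt-Co1, limited by the rule itself, stood at 950 against 24435 CPM in WT. Peroxisomal proteins had medians of 0.63 and 0.56. Cytoplasmic ribosomal proteins were higher in both libraries for 68 of 79 genes, by small amounts, with medians of 0.33 and 0.28 and 0 genes past 2-fold in both.

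Nuclear-retained RNAs were low in members compared with all deep barcodes. Of 7 in the list, 5 had enough UMIs, and 4 were lower in both libraries (medians -1.45 and -1.55). Neat1 (chr19:5824708-5845478), the scaffold of nuclear paraspeckles, stood at 42.2 against 478 CPM in WT (-3.50) and 65.3 against 478 in Tg (-2.87). Kcnq1ot1, an imprinted antisense RNA, had 3 UMIs in WT members and 21 in Tg members (-3.31 and -2.92). Malat1 (chr19:5795690-5802672) stood at 1193 CPM in WT members against 3252 in deep barcodes, and at 1597 against 4662 in Tg (-1.45 and -1.55).

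Malat1 was spread unevenly over members. The median WT member had 0 Malat1 UMIs, 1 had 213, and 10 barcodes held 41.3% of all Malat1 UMIs of WT members. In Tg, 10 barcodes held 18.7%. It moved with the mitochondrial share: WT members with under 0.5% mitochondrial UMIs had 722 CPM of Malat1 and those with 2 to 5% had 4416, while in Tg these were 1250.0 and 2494. Endothelial markers moved with it, at 165 and 545 CPM in WT and 163 and 1155 in Tg. Their part in the result was not tested. When every barcode was thinned to 500 UMIs, Malat1 was detected in 29.5% of WT members (26.4 to 32.8; unthinned 42.2%) and 38.1% of Tg members (55.3%). Thinned alike, Malat1 was detected in 24.4% of all WT deep barcodes (17.9 to 31.9) and 61.8% of all Tg deep barcodes (58.8 to 64.6). In deep barcodes of at most 5% mitochondrial UMIs it was detected in 5.88% in WT and 17.7% in Tg, below the members of each library. B cells reached 99.2% in both libraries.

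The comparison changed when deep barcodes were divided by their own mitochondrial share, and every difference above has to be read with this. Deep barcodes with at most 5% mitochondrial UMIs, the same limit as for members, numbered 85 in WT and 147 in Tg, and those above 5% numbered 71 and 946. The limit was shared but the share itself was not. Its median was 0.327% in WT members and 0.0998% in WT deep barcodes of at most 5%, and 1.19% and 0.355% in Tg. Against the first set, 37 of 3301 WT genes (1.12%) were over 2-fold higher in members and 9 (0.273%) lower. In Tg 213 of 6861 (3.10%) were higher and 44 (0.641%) lower. In both libraries together, 14 of 3298 genes (0.424%) were over 2-fold higher and 0 (0.0%) lower. Against the second set, 890 of 5396 WT genes (16.5%) were higher and 981 (18.2%) lower, and 718 of 10156 Tg genes (7.07%) were higher and 798 (7.86%) lower. In both libraries, 214 of 5396 genes (3.97%) were higher in both and 331 (6.13%) lower.

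The gene lists followed the same pattern. Secreted proteins had medians of 0.01 and -0.14 against deep barcodes of at most 5% mitochondrial UMIs, and -1.84 and -0.55 against those above. Membrane transporters had -0.03 and -0.41 against -2.01 and -0.90, and in Tg 24 of 27 were still lower under the shared 5% limit, 2 of them past 2-fold. Cytosolic enzymes had 0.06 and 0.12 against 0.79 and 0.35. Ribosomal proteins had -0.13 and -0.02 against 0.49 and 0.30. Under the shared 5% limit the WT medians of these lists thus lay within 0.13 of 0. Of the 19 lists, 11 then kept 1 sign in both libraries, compared with 17 against all deep barcodes.

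**Figure D2:**
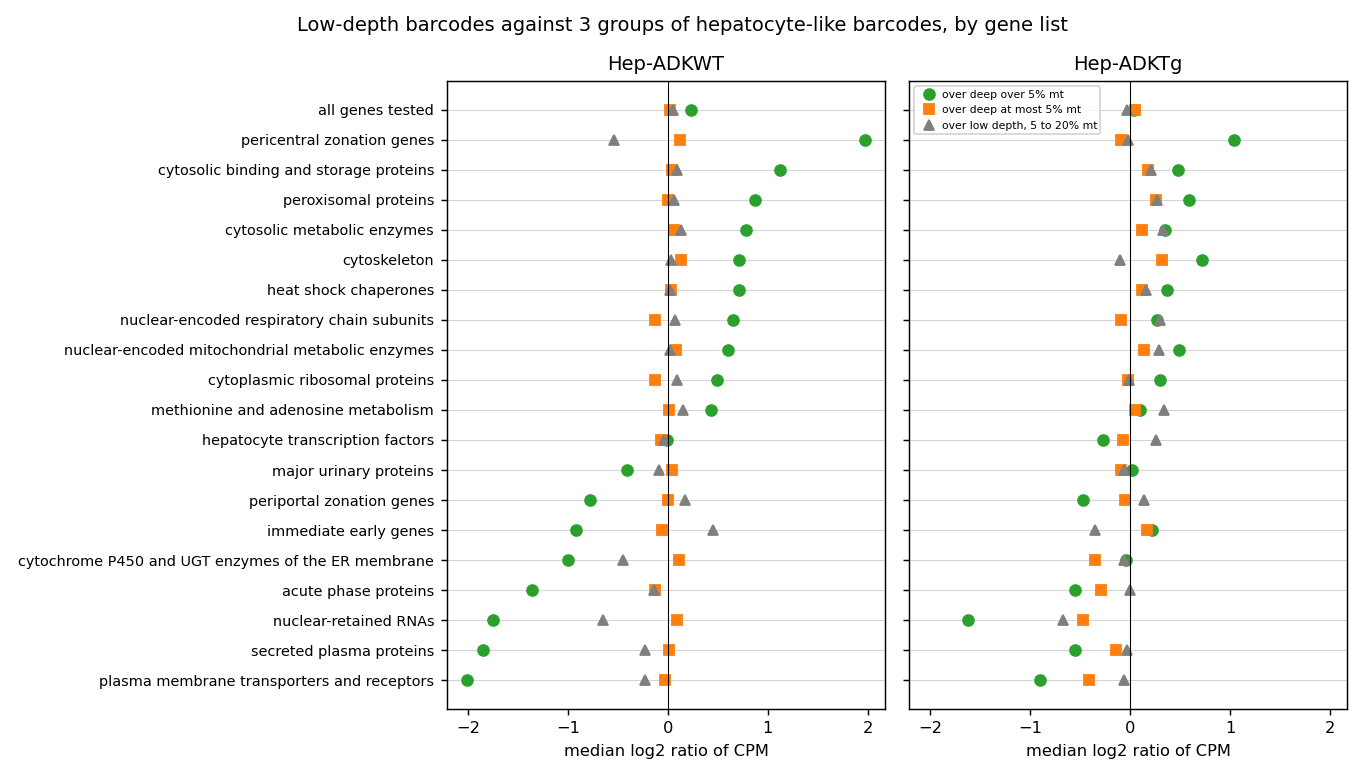
Median log2 ratio of CPM for each gene list in members over deep barcodes above 5% mitochondrial UMIs (green circles), over deep barcodes of at most 5% (orange squares) and over barcodes of the members' own depth with 5 to 20% (grey triangles), with WT on the left and Tg on the right. Green circles spread from -2.01 (plasma membrane transporters) to 1.98 (pericentral genes) in WT, where the orange squares lie near the line at 0. In Tg the orange squares for nuclear-retained RNAs (-0.47) and transporters (-0.41) lie left of it.

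Levels in 4 groups of barcodes show which group stood apart. The groups are members, barcodes of the same depth with 5 to 20% mitochondrial UMIs (97 in WT and 877 in Tg), deep barcodes of at most 5%, and deep barcodes above 5%. In this order Alb stood at 8996, 9714, 7692 and 37755 CPM in WT, and at 17294, 17931, 16896 and 28148 in Tg. Akr1c6 stood at 4730, 4404, 4495 and 638 in WT, and at 2680, 1918, 1798 and 774 in Tg. For these genes the first 3 groups were closer to each other than to the deep barcodes above 5%, with a wider gap in WT.

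Slc10a1 stood at 102, 91.8, 109 and 584 CPM in WT, and at 148, 198, 303 and 468 in Tg. Neat1 stood at 42.2, 149, 41.5 and 607 CPM in WT, and at 65.3, 104, 90.9 and 508 in Tg. The 4th group was the highest for both genes in both libraries, and for Slc10a1 in Tg the deep barcodes of at most 5% lay between members and that group. Malat1 was different in Tg, at 1597, 7769, 1606 and 4895 CPM, where barcodes of low depth and 5 to 20% mitochondrial UMIs were the highest. In WT it was 1193, 1869, 728 and 3995.

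Against the barcodes of their own depth with 5 to 20% mitochondrial UMIs, 109 of 2255 WT genes (4.83%) were over 2-fold higher in members and 33 (1.46%) lower, and in Tg 99 of 6405 (1.55%) were higher and 465 (7.26%) lower. Of 2252 genes measured in both, 1 (0.0444%) was higher in both libraries and 0 (0.0%) lower. The 2 sets of deep barcodes differed from each other. With those of at most 5% over those above, 801 of 5245 WT genes (15.3%) were over 2-fold higher and 1026 (19.6%) lower, and 136 of 9915 Tg genes (1.37%) were higher and 663 (6.69%) lower. In both libraries 41 of 5245 genes (0.782%) were over 2-fold higher in both libraries and 82 (1.56%) lower. They also differed in depth, with medians of 6877 and 43226 UMIs in WT and 7634 and 32373.5 in Tg. Among deep barcodes, mitochondrial share and depth therefore cannot be told apart.

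A different set of transcripts was high in members even against deep barcodes of the same mitochondrial share. The 14 genes past 2-fold in both libraries were the ribosomal-locus transcripts Gm42418 and AY036118, Glul (glutamine synthetase), the pericentral P450 gene Cyp2a5, the transcription factor Maf, the thymosins Tmsb4x and Tmsb10, and 7 immune genes (Ccl5, Cd52, Igha, Ighm, Igkc, Jchain and S100a8). The immune genes belong to cell classes whose markers were limited in deep barcodes and not in members. Tmsb4x stood at 2.06 and 3.61 on the log2 scale, and endothelial and white blood cells express it strongly. The part of other cells' RNA in it was not tested.

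Gm42418 (chr17:39846958-39848788), a non-coding gene model that overlaps a ribosomal RNA sequence, was the most abundant transcript of WT members. It was named after its values were seen. It ran from 6.28 through a median of 234 to 1526 UMIs per 10000 in WT members and from 0 through 318 to 2424 in Tg members, with medians of 63.5 and 9.73 in deep barcodes. AY036118 (chr17:39847113-39848035) lies within it on the other strand, at 714 CPM in WT members against 60.8 in deep barcodes and 2046 against 28.9 in Tg. No source used here states that counting was by strand, so reads of the 2 cannot be told apart.

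The level of Gm42418 went down step by step with depth. Unlike the shallower groups, the deep barcodes also had the limit on markers of other classes. Below 1000 UMIs, from 1000 to 2000, above 2000 but below 5000, and in deep barcodes of at most 5% mitochondrial UMIs, it stood at 29065, 21560.1, 15209.7 and 8877 CPM in WT. In Tg it stood at 40505, 25648, 14758 and 4237. B cells, with medians of 3658 and 3208 UMIs, had 10630.1 and 12286 CPM. Alb also went down over the groups below 5000 UMIs, at 10132, 8208 and 5730.0 CPM in WT and 18216, 16468 and 12245 in Tg. It was higher again in the deep barcodes, at 7692 CPM in WT and 16896 in Tg. Lars2, a gene for mitochondrial leucyl-tRNA synthetase, followed Gm42418, at 896 CPM in WT members, 457 in deep barcodes of at most 5% and 137 in those above, and at 1089, 184 and 54.4 in Tg.

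**Figure D3:**
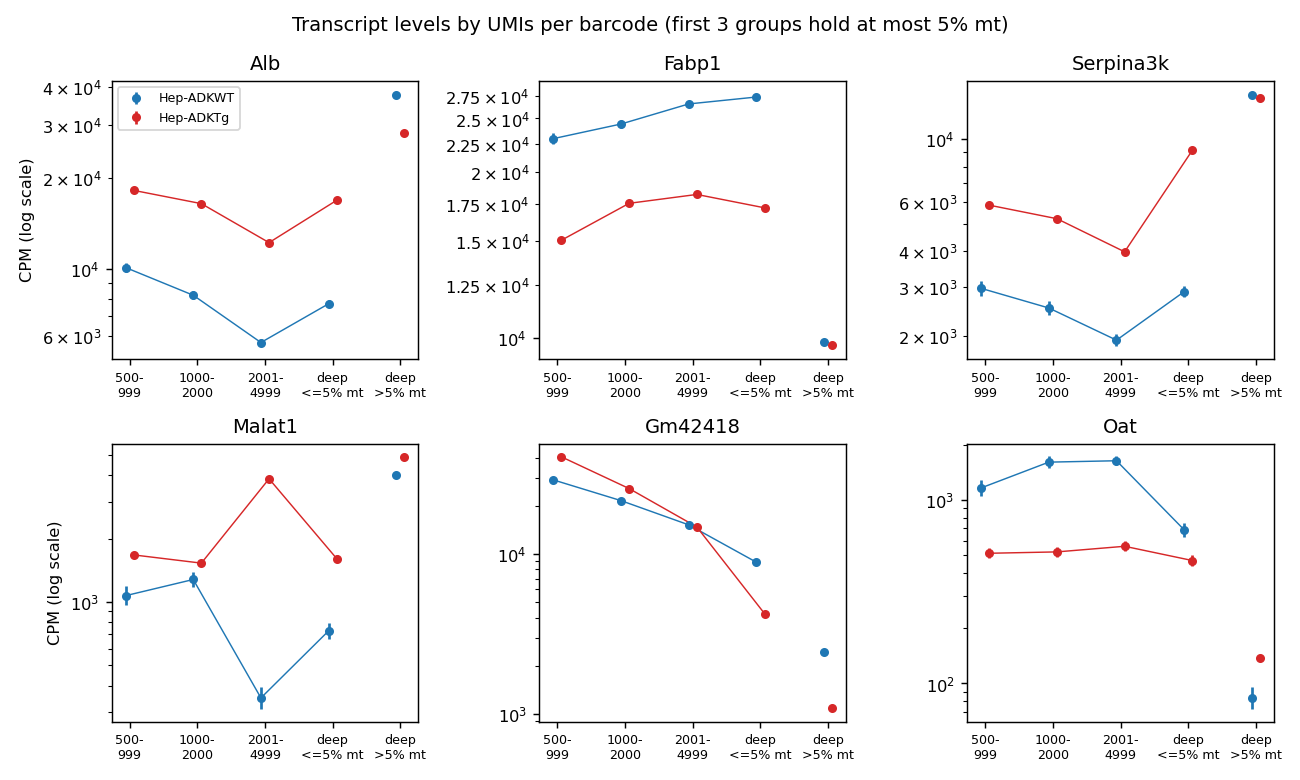
Levels of 6 transcripts (CPM, log scale) by UMIs per barcode, for WT (blue) and Tg (red), with 95% counting intervals. The first 3 groups meet the members' rule at 3 depths, and deep barcodes follow in 2 groups by mitochondrial share. Gm42418 goes down at each step in both libraries, while Alb, Fabp1, Serpina3k and Oat differ most in the deep barcodes above 5%.

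The position of genes along the lobule gave the largest positive list median. Of 20 pericentral genes measured in both libraries, 16 were higher in members in both, 8 of them past 2-fold (medians 1.29 and 0.92), and of 24 periportal genes 19 were lower in both (-0.66 and -0.46). Oat, ornithine aminotransferase, stood at 1423 CPM (1341 to 1507) in WT members against 221 in deep barcodes, and at 516 against 160.4 in Tg. Cyp2e1, an alcohol-oxidising P450 enzyme of the ER membrane, lay at 1.55 and 0.79, opposite to secreted proteins although it is made at the ER too. Cyp2f2, a periportal P450 enzyme, lay at -2.81 and -1.27.

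Among the pericentral genes Glul had the largest ratio in WT, at 507 CPM (459 to 559) in members against 23.6 in deep barcodes (log2 ratio 4.42), and at 118 against 46.9 in Tg (1.33). It remained higher in members than in deep barcodes of at most 5% mitochondrial UMIs, which had 40.1 CPM in WT and 30.6 in Tg. It was present in 9.22% of WT members. The pericentral list as a whole was not higher there, with medians of 0.12 and -0.09, and Cyp2e1 stood at 1119 CPM in WT members, 1035 in deep barcodes of at most 5%, and 192 in those above. Zonation thus also differed between the sets of deep barcodes, which differ in depth as well as in mitochondrial share. Within genes with few hydrophobic codons at the start (0 to 4 of 9), pericentral medians were 1.45 and 0.89 over 6 genes and periportal medians -0.40 and -0.37 over 11. Within genes with 5 to 9 such codons, pericentral medians were 1.29 and 0.86 over 14 genes and periportal medians -1.53 and -0.54 over 13. Against all deep barcodes, pericentral medians were thus positive in both of these classes of coding start.

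Other genes with the highest ratios in both libraries were Aldh3a2 (a fatty aldehyde dehydrogenase), at 168 against 34.01 CPM in WT and 76.5 against 15.0 in Tg, Gstm2 at 2.72 and 2.14 on the log2 scale, Hpgd (prostaglandin dehydrogenase) at 1.91 and 1.81, Fitm1 at 2.23 and 1.83 and Blvrb (biliverdin reductase B) at 1.54 and 1.48. Fitm1 is a membrane protein of the ER, so the group held an exception to the order by compartment. Major urinary proteins, secreted pheromone carriers encoded by near-identical genes between which reads can be split, had medians of -0.36 and 0.00. Mup20 stood at -1.82 and -0.92, and Mup17 at 1.23 and 1.12.

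The start of the coding sequence was then read for all genes. Of the 5983 genes, 5870 had a coding start in GENCODE M21, and they were grouped by the highest number of codons with T at the second position in any 9 consecutive codons from codon 2 to 30. The 404 genes with 7 to 9 such codons had medians of -1.19 in WT and -0.57 in Tg, and 322 of them were lower in members in both libraries. The 3939 genes with 0 to 4 had 0.27 and 0.14, with 1049 lower in both, and the 1527 genes with 5 or 6 had 0.08 and -0.02. Of the 47 secreted proteins, 21 were in the top class, 24 in the middle and 2 in the lowest, and of 42 cytosolic enzymes 2, 15 and 25 were. All 12 major urinary proteins measured in both libraries were in the top class too, although their list had medians of -0.36 and 0.00.

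**Figure D4:**
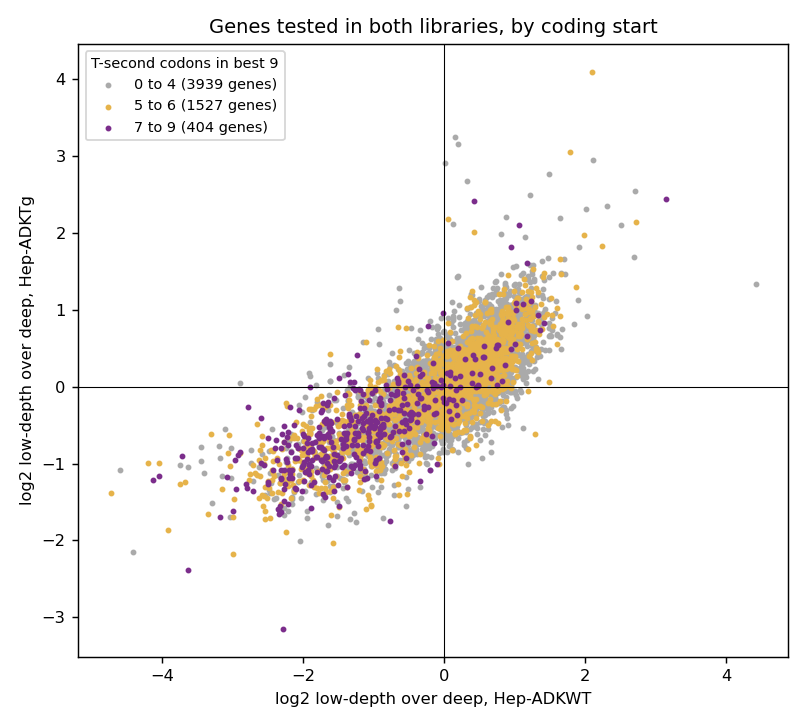
Log2 ratio of members to all deep barcodes, WT on the x axis and Tg on the y axis, for genes measured in both libraries. Each point is a gene, coloured by its class of hydrophobic codons, and most of the 404 genes with 7 to 9 (purple) lie in the lower left, where levels were lower in members of both libraries (322 genes).

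This order too depended on which set of deep barcodes was used, and the sets differ in depth as well as in mitochondrial share. The top class stood at 0.04 and -0.18 against deep barcodes of at most 5% and at -1.43 and -0.48 against those above. Against barcodes of the members' own depth with 5 to 20% mitochondrial UMIs it stood at -0.16 and -0.18. In Tg 320 of 471 top-class genes were lower in members than in deep barcodes of at most 5%, and in WT 87 of 196. Transcript length gave a second order, read against all deep barcodes only. With genes in 4 equal classes from the shortest to the longest, medians were 0.51, 0.30, 0.06 and -0.15 in WT. In Tg they were 0.39, 0.16, -0.05 and -0.24. Within the shortest class, again against all deep barcodes, the top class of coding starts had -0.57 and -0.13, compared with 0.57 and 0.46 for the lowest.

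**Figure D5:**
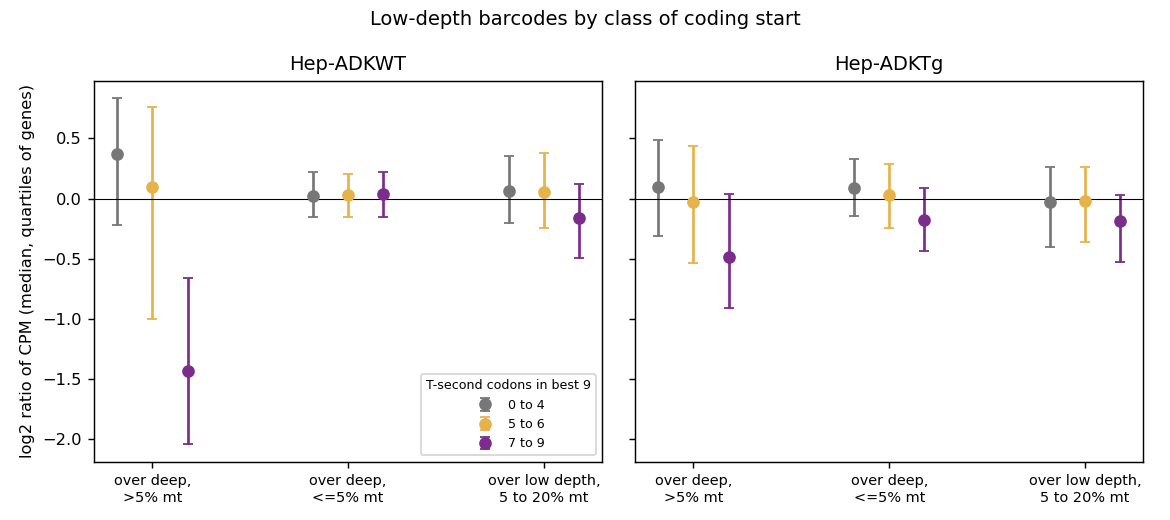
Log2 ratio of CPM in members over each comparison group for 3 classes of genes by hydrophobic codons near the start, in WT and Tg. Points are medians and bars run from the lower to the upper quartile of genes. The class of 7 to 9 stands apart against deep barcodes above 5% mitochondrial UMIs (-1.43 and -0.48) and lies near 0 against those of at most 5% (0.04 and -0.18).

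At equal depth members held about as many genes as deep barcodes. Thinned to 500 UMIs, the median member showed 343 genes in WT and 320 in Tg, beside 322.5 and 288 in all deep barcodes (unthinned 536 and 479.5 beside 2516 and 4293). At the same thinned depth deep barcodes of at most 5% mitochondrial UMIs had 348 genes in WT and 327 in Tg.

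The last comparison set the members of the 2 genotypes side by side. Adk itself stood at 1051 CPM (981 to 1124) in members of the library labelled WT and 778 (750.3 to 806) in those of the library labelled Tg, and at 661 and 612 in deep barcodes. The gene was thus not higher in the library labelled Tg, and the labels do not say whether the transgene's transcripts carry the 3′ end that this assay counts. Of 6334 genes, 474 (7.48%) were over 2-fold higher in Tg members than in WT members and 150 (2.37%) over 2-fold lower. Without regard to size, 2410 genes were higher and 3924 lower, and with TMM factors 57 were over 2-fold lower.

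Plasma proteins, transporters and P450 enzymes were higher in members of the library labelled Tg. Secreted proteins were higher for 42 of 47 genes (median log2 ratio of Tg to WT 1.16), transporters for 26 of 26 (0.92), P450 and UGT enzymes for 22 of 24 (0.99), acute phase proteins for 18 of 20 (1.28) and major urinary proteins for 12 of 12 (1.21), while the median of all genes was -0.17. Cytosolic enzymes were lower for 40 of 42 (-0.57). Ribosomal proteins were lower for 79 of 79, with a median of -0.25 close to that of all genes. TMM factors raised every ratio alike, which moved the median of all genes to 0.05, of cytosolic enzymes to -0.35 and of ribosomal proteins to -0.03. Between all deep barcodes of the 2 libraries, the medians were 0.07 for secreted proteins, 0.10 for transporters, 0.15 for P450 enzymes, 0.93 for major urinary proteins and 0.51 for acute phase proteins. Between deep barcodes of at most 5% mitochondrial UMIs they were 1.29, 1.43, 1.29, 1.53 and 1.39, beside -0.68 for cytosolic enzymes, -0.39 for ribosomal proteins and -0.22 for all genes. The difference between the libraries was therefore at least as large in these deep barcodes, in the same direction, for each of these lists. Fga stood at 460 CPM in WT members and 1408 in Tg members, and at 493 and 2212 in these deep barcodes. Lrg1, an acute phase glycoprotein, stood at 171 CPM in WT members and 717 in Tg members, and Itih1, a plasma protease inhibitor chain, at 52.2 and 202. The mitochondrial share of members (medians 0.327% and 1.19%) and the number of members moved with the genotype, and their part in these differences was not tested.

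Among single genes with the largest differences, Glul was 507 CPM in WT members and 118 in Tg members (log2 ratio -2.10). It lay the other way over all deep barcodes (0.99) but not over those of at most 5% mitochondrial UMIs, at 40.1 CPM in WT and 30.6 in Tg. Oat was 1423 and 516 CPM, Hpgd 199 and 70.6, and Gstm2 83.2 and 30.9. Pctp and Stard4, lipid transfer proteins, lay at -1.65 and -1.54, Ddah1 at -1.52, Fitm1 at -1.41, Rapgef4 at -1.36 and the acute phase protein Saa3 at -1.50. The higher side held Gdf15, a stress-induced hormone, at 3.73 and 71.9 CPM (3 and 282 UMIs), the canalicular transporter Abcc2 at 21.1 and 80.8, Ces3a, a carboxylesterase of the ER, at 124 and 468, and 3 major urinary protein genes, Mup15, Mup17 and Mup18, at 2.74, 2.003 and 3.44 on the log2 scale. It also held the pancreatic enzymes Prss2, with 2 UMIs in WT members and 363 in Tg members (a ratio of 37.2, log2 interval 3.36 to 8.27), and Ctrb1, with 0 and 540 UMIs. With a floor of 3 UMIs in place of the 0 of WT members, Ctrb1 was 36.9-fold higher, and the counting interval of its log2 ratio began at 4.90.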

How the data were processed

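The deposited values were whole-number UMI counts per gene and barcode, 1 matrix per library (10x Genomics version 3 chemistry, per the labels' protocols). The submitters' processing notes name Cell Ranger 6.1.2, R 4.1.0, Seurat 4.0.2 and build GRCm38, while the file headers name Cell Ranger 5.0.1. The series text names SoupX and Harmony, and since the deposited counts are whole they were treated as uncorrected. Barcodes were selected by the stated limits, counts were summed over each barcode group, and levels were expressed per 1000000 non-mitochondrial UMIs (CPM), with exact Poisson, conditional binomial or Clopper-Pearson intervals at 95%. With 1 library per group no test was made, and a gene was called past 2-fold with at least 50 UMIs over both groups, leaving out mitochondrial and rule genes. Named genes needed at least 100 UMIs in each library and a UMI in at least 5% of either group. Mitochondrial genes, rule genes, haemoglobin, immunoglobulins, other classes' markers and predicted genes were left out. The 12 highest and 12 lowest by the smaller of the 2 libraries' log2 ratios were named (10 and 10 for Tg against WT). Malat1, Neat1, Adk and the rule genes are always given. Of the 12 lowest, 1 is not reported here.

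The members, gene lists and rules were chosen with earlier results of these data known. A measure of protein hydrophobicity was not used here. It was replaced, after the data were seen, by the count of codons with T at the second position, and the division of deep barcodes at 5% in both directions was added then too, as were list medians between libraries within deep barcodes of at most 5%. Gene IDs matched GENCODE M21 for 32235 of 32285. No doublet caller was run. The codon count and the calls used Python 3.11.15, numpy 2.4.6, scipy 1.17.1 and pandas 2.3.3, and the scaling alternatives used edgeR 4.0.16 (TMM) and DESeq2 1.42.0 in R 4.3.3. On simulated data, 99.5% (WT) and 99.0% (Tg) of 200 genes changed 4-fold were called, and 1.38% and 1.28% of unchanged genes passed 2-fold. The simulated counts held counting error only and no spread between barcodes, so these rates need not hold for the real counts.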

Additional observations from a re-analysis of the deposited data

Results flagged for a closer look

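The lists of major urinary proteins and of immediate early genes had medians of opposite sign in the 2 libraries when members were set against all deep barcodes. Major urinary proteins stood at -0.36 in WT and 0.00011 in Tg, and the Tg value had the other sign under TMM factors (-0.20). Immediate early genes, which respond within minutes to stimulation, stood at -0.80 in WT over 10 of 19 genes and 0.25 in Tg over 14 of 19. With 1 library per group neither difference was tested.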

How the results depend on the processing

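No paired analysis was possible because each group has 1 library. Genes over 2-fold higher (137) and lower (290) in both libraries came to 309 and 156 with CPM over all UMIs, 44 and 513 with TMM factors, 49 and 476 with DESeq2 size factors, 36 and 179 with the mean over barcodes, 1727 and 436 with no minimum of UMIs, 72 and 140 with 4 times the minimum, 28 and 31 with rule genes at 10% or more (100 WT and 1297 Tg members), and 14 and 0 against deep barcodes of at most 5% mitochondrial UMIs. Deep barcodes above 5% gave 214 higher. TMM moved the all-gene median from 0.19 to -0.09 in WT and from 0.06 to -0.14 in Tg, and the list of methionine and adenosine metabolism then changed sign in both libraries (0.24 to -0.04 and 0.09 to -0.12).

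The median of genes with 7 to 9 hydrophobic codons (WT -1.19, Tg -0.57) was -0.998 and -0.38 over all UMIs, -1.46 and -0.77 with TMM, -1.43 and -0.74 with DESeq2, -0.15 and -0.19 with no minimum, -0.52 and -0.26 with rule genes at 10% or more, and 0.041 and -0.17 against deep barcodes of at most 5%, over genes measured in both libraries. In WT it was -0.70 with the mean over barcodes, -1.33 against barcodes of 10000 UMIs or more and -1.43 against those above 5%. In Tg it was -0.63 for members of 1000 to 2000 UMIs. Lists of 1 sign in both libraries went from 17 to 11 against deep barcodes of at most 5%. There the WT medians of secreted proteins (0.0098), nuclear-retained RNAs (0.10) and major urinary proteins (0.04) became positive. So did those of P450 and UGT enzymes (0.11) and periportal genes (0.005). Those of respiratory chain subunits (-0.13), ribosomal proteins (-0.13) and peroxisomal proteins (-0.00027) became negative. In Tg, respiratory chain subunits (-0.09), ribosomal proteins (-0.02), pericentral genes (-0.09) and major urinary proteins (-0.09) became negative. Among genes past 2-fold, Kcnq1ot1 (1.43), Neat1 (0.025), Ptprf (0.52), Dhcr7 (0.84), Malat1 (0.71) and Alb (0.23) changed sign in WT. These rest on few UMIs in WT members and those deep barcodes for Kcnq1ot1 (3 and 1), Dhcr7 (14 and 7) and Ptprf (16 and 10). Kcnq1ot1 also changed sign in WT with rule genes at 10% or more (0.41).

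Genes higher in Tg members (474) numbered 1074 with no minimum, 205 with 4 times the minimum and 209 with rule genes at 10% or more. Those lower (150) numbered 57 with TMM, 59 with DESeq2, 3881 with no minimum and 35 with 4 times the minimum. Without thinning, Malat1 was detected in 42.2% of WT members and 69.9% of deep barcodes, and in 55.3% and 95.7% in Tg, and the median of genes was 536 and 2516 in WT and 479.5 and 4293 in Tg. Other than through the settings themselves, the cause of these shifts was not tested. Deep WT barcodes of at most 5% mitochondrial UMIs numbered 85 with 725017 UMIs, which limits genes that can be measured there.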

Other observations

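Transcripts of digestive enzymes of the pancreas were found in members of the Tg library, and these genes were chosen after their values were seen. The chymotrypsinogen gene Ctrb1 had 540 UMIs in 283 of 4084 Tg members (6.93%), with 94 in a single barcode and 45.6% of all its UMIs in 10 barcodes. Its level was 138 CPM in Tg members, 2.001 in Tg deep barcodes and 26.7 in all other Tg barcodes, so it was not restricted to members. In Tg barcodes of the members' depth with 5 to 20% mitochondrial UMIs, Ctrb1 stood at 139.9 CPM and Prss2 at 98.5, beside 92.6 for Prss2 in members. Trypsinogen genes Prss2 and Try4 had 363 and 187 UMIs in Tg members, the carboxypeptidase gene Cpb1 had 133, colipase Clps 195, pancreatic lipase Pnlip 167 and Reg1 64. WT members had 2 UMIs of Prss2, 1 of Clps and 0 of the other 5. Cela1, an elastase gene, was different, with 216 CPM in WT members and 266 in Tg members, and a UMI in 76.9% of WT deep barcodes.

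Gdf15 was spread over barcodes, with at most 3 UMIs in any of the 259 Tg members that had it. It stood at 71.9 CPM in Tg members, 27.9 in Tg deep barcodes and 13.2 in WT deep barcodes.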
